A study of Mus musculus with 6 samples.

Results

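Kirrel2, Nphs1 and the genes that lie beside them on mouse chromosome 7 were followed in embryonic tailbuds of Danforth's short tail (Sd) mutants and wild-type (WT) embryos. The 9 genes, of 37310 gene identifiers in the count files, were Kirrel2, Nphs1, Aplp1, Nfkbid, Hcst, Tyrobp, Prodh2, Arhgap33 and Lrfn3. Kirrel2 and Nphs1 were chosen by their measured difference between Sd/Sd and WT in these same libraries, and the other 7 for lying next to them, with the values of Aplp1 already known. The differences of Kirrel2 and Nphs1 between genotypes are therefore given as a description. Where the text says which fits called them, that describes the fits and is no test of the pair. The question was whether the gain in Sd/Sd is limited to that pair or reaches Aplp1 and the genes further out.

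Polyadenylated RNA was sequenced from 3 Sd/Sd and 3 WT/WT tailbud libraries at embryonic day 9.5. Sd/Sd embryos are homozygous for the Danforth mutation, an inserted retrotransposon upstream of Ptf1a on chromosome 2, and both genotypes share the outbred CD-1 background, on which the Sd/+ line was kept. Tailbuds of 2 embryos were combined in a library where material was short, and the sources used here do not give which ones. The labels name no litters, so a p-value here speaks of the spread among these 6 libraries, which may be partly technical. A bulk tailbud cannot tell fewer cells of a type from less RNA per cell.

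Kirrel2 (also called Neph3 or filtrin) and Nphs1 (nephrin) encode immunoglobulin superfamily proteins of the plasma membrane that bind each other and their own kind across cell contacts. They are best known from the slit diaphragm, the filter between the foot processes of kidney podocytes, and are also made in pancreas and developing nervous tissue. PTF1 is a complex of the basic helix-loop-helix factor Ptf1a with an E protein and an RBPJ protein, and it binds an E-box next to a TGGGAA box. In the developing mouse neural tube, Kirrel2 has been described as a target of Ptf1a. The neighbours do unrelated work: Aplp1 is a neuronal relative of the amyloid precursor protein, Nfkbid a nuclear IkB protein, Hcst (DAP10) and Tyrobp (DAP12) signalling adaptors of immune receptors, Prodh2 a hydroxyproline dehydrogenase, Arhgap33 a GTPase-activating protein of neurons, and Lrfn3 a synaptic adhesion protein.

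The 9 genes are consecutive protein-coding genes in the GENCODE M21 annotation of GRCm38, in the order Lrfn3, Tyrobp, Hcst, Nfkbid, Aplp1, Kirrel2, Nphs1, Prodh2 and Arhgap33. Kirrel2 and Nphs1 are transcribed away from each other, Kirrel2 on the minus and Nphs1 on the plus strand, from RefSeq starts 2543 bases apart. Aplp1 starts 11933 bases from the Kirrel2 start, also on the minus strand, and is the next gene in the direction in which Kirrel2 is transcribed. The RefSeq promoter table (GRCm38.p6) held 7 of the 9 genes, all but Tyrobp and Arhgap33. The 250 bases before the start are printed 5′ to 3′ on the strand of each gene for the pair and for Aplp1, the neighbour on which the question turns. Capitals mark every CANNTG (E-box) and TGGGAA (RBPJ box) on either strand, each searched on its own, with no overlap among the matches shown.
Kirrel2 (chr7:30457516-30457765, minus strand): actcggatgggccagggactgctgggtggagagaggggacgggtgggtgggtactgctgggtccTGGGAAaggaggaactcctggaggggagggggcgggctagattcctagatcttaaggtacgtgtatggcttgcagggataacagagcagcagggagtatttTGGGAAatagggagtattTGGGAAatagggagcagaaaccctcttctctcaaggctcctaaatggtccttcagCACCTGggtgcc
Nphs1 (chr7:30459808-30460057, plus strand): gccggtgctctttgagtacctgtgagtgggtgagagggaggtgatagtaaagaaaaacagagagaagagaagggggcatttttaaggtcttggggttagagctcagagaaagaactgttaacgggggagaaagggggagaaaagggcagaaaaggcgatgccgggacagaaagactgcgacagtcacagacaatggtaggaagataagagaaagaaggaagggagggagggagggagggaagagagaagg
Aplp1 (chr7:30445583-30445832, minus strand): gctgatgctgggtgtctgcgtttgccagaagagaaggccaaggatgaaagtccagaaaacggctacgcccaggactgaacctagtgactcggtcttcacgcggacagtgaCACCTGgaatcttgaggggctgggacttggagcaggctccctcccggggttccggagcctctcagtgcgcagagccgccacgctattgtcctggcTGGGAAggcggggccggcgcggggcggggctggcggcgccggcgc
In the Kirrel2 window, TGGGAA stood 3 times, beginning 186, 85 and 67 bases before the start, and the E-box CACCTG once, 12 bases before it. In the Nphs1 window neither set of letters was present. In the Aplp1 window, CACCTG began 140 and TGGGAA 45 bases before the start. In neither the Kirrel2 nor the Aplp1 window did a TGGGAA directly adjoin the CACCTG, and spacing was not part of the search. Of the 7 genes with an entry, 6 held CANNTG and 4 held TGGGAA in at least 1 window. Among all 32536 distinct windows of this length in the table, 66.2% held CANNTG, 21.6% held TGGGAA, 14.8% held both and 0.206% held TGGGAA at least 3 times. The cut of at least 3 equals the number in the Kirrel2 window, so that share is no measure of rarity. The Kirrel2 matches at 85 and 67 bases stand in near copies of the same short stretch. The motifs were searched with these windows and the expression values known, and a match is a description of letters, not of binding.

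The 6 libraries held 41788978 to 62296689 counts each, and 15471 genes with enough counts entered the test of Sd/Sd against WT. That test was edgeR's quasi-likelihood test with Benjamini-Hochberg adjustment over all 15471 genes, and a gene was called at an adjusted p under 0.05. By that rule 0.0582% of these genes were called. Sd/Sd replicate 3 stood apart from the other libraries on the leading principal component (33.8% of the variance), at 47.9 against -32.7 to 15.8 for the rest. Sd/Sd replicate 1 stood apart on the next component (22.5%), at -42.3 against -1.62 to 27.1 for the rest. Values without these libraries are given where they matter. Ptf1a, the gene next to the Danforth insertion, had 848, 864 and 959 counts in Sd/Sd replicates 1 to 3, against 5, 2 and 1 in WT replicates 1 to 3, which fits the genotype labels in every library. The tailbud list (T, Tbx6, Cdx and Hox genes and others) summed to 787 to 1633 CPM (counts relative to library size, with TMM scaling) in Sd/Sd and 1125 to 1468 CPM in WT, and its 1 member without any count, Cdx4, lies on chromosome X, where every gene is listed at 0 in these files. Of its 14 tested genes, 0 were called by edgeR, DESeq2 or limma-voom, 1 had an unadjusted p under 0.05, as 2.90% of all tested genes did (Hoxa10, 94.9 ± 14.8 CPM in Sd/Sd and 113 ± 3.28 CPM in WT), the next smallest p was that of Cdx1 (9.15 ± 1.72 and 11.4 ± 1.13 CPM), and the median log2 fold change was -0.03.

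Kirrel2 (ENSMUSG00000036915.9) was read in every Sd/Sd library and was all but absent from WT tailbuds. It had 634, 1147 and 368 counts in Sd/Sd replicates 1, 2 and 3, against 0, 0 and 1 counts in WT replicates 1, 2 and 3. In CPM these were 15.4, 18.3 and 7.51 in Sd/Sd, with a mean of 13.7 ± 5.59 (SD, n = 3), against 0.00790 ± 0.0137 in WT (SD, n = 3). The groups did not overlap, and among the mutant libraries replicate 3 was the lowest. Summed over the libraries, Kirrel2 had 2149 counts in Sd/Sd and 1 in WT, a depth-scaled ratio of 2078 with a 95% exact counting interval of 373 to 82107. The WT side of that ratio rests on 1 count, and the interval covers counting error only.

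Nphs1 (ENSMUSG00000006649.9) was found in every Sd/Sd library and in no WT library. It had 126, 227 and 73 counts in Sd/Sd replicates 1, 2 and 3, against 0, 0 and 0 counts in WT replicates 1, 2 and 3. Its level was 3.06, 3.63 and 1.49 CPM in Sd/Sd, a mean of 2.72 ± 1.11 (SD, n = 3). Measured against a floor of 3 counts over the 3 WT libraries, Nphs1 was at least 137-fold higher in Sd/Sd. The gene overlaps Nphs1os and the pseudogene Rps12-ps4 on the opposite strand, and whether the authors counted by strand is not stated in the sources used here. Nphs1os is listed at 0 in all 6 libraries. That 0 does not show how reads in the overlap were assigned, and any reads dropped there would lower the Nphs1 counts.

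**Figure D1:**
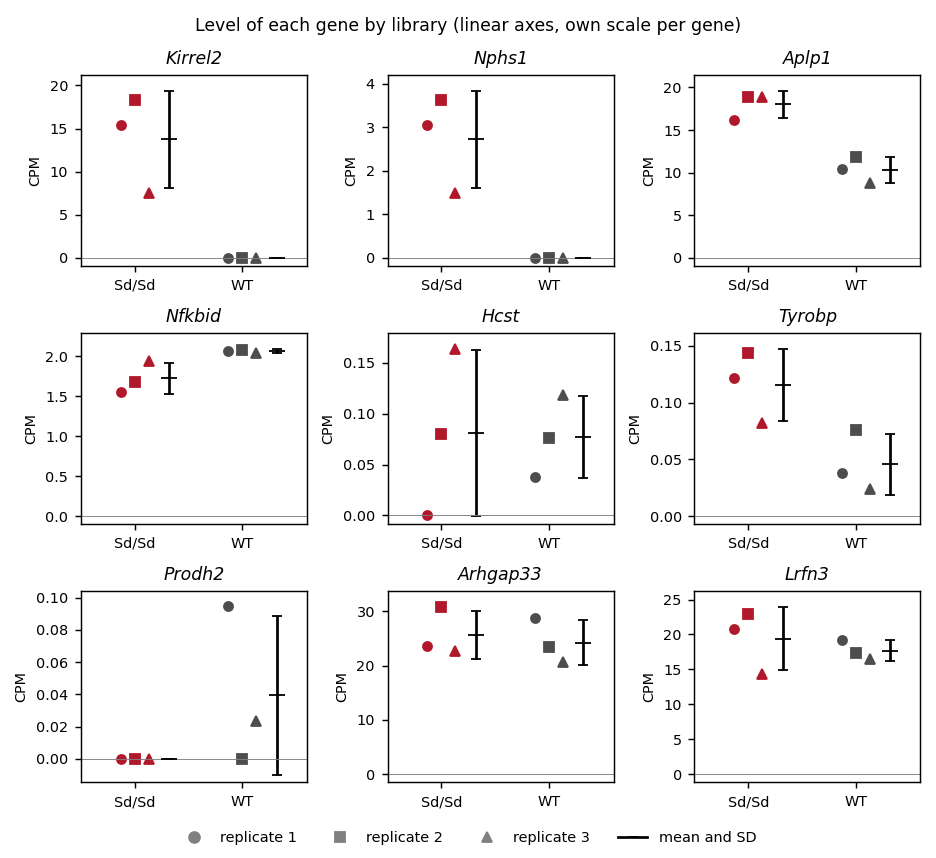
Level of each of the 9 genes in CPM on linear axes, each gene with a scale of its own. Points are single libraries, with the Sd/Sd libraries left and the WT libraries right, and the bar beside them is the mean with its SD (n = 3). Kirrel2 and Nphs1 lie at or near 0 in WT, Aplp1 separates at 16.2 to 18.9 CPM in Sd/Sd against 8.81 to 11.9 CPM in WT, and Arhgap33 and Lrfn3 overlap.

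Within the mutant libraries, the proportion of Kirrel2 to Nphs1 did not differ beyond counting error while their level varied. Nphs1 made up 16.6% of the summed Nphs1 and Kirrel2 counts in Sd/Sd replicate 1 (95% exact binomial interval 14.0 to 19.4%), 16.5% in replicate 2 (14.6 to 18.6%) and 16.6% in replicate 3 (13.2 to 20.4%). That is 19.9, 19.8 and 19.8 Nphs1 counts per 100 Kirrel2 counts. The highest Sd/Sd library exceeded the lowest 2.44 times in Kirrel2 and 2.43 times in Nphs1. The measured proportion was thus alike at the high and at the low level. The intervals leave room for a difference, as that of replicate 3 runs from 13.2 to 20.4%. Per kilobase of exon (3.94 kb in Kirrel2, 6.62 kb in Nphs1), the ratio of Nphs1 to Kirrel2 was 0.118 in all 3 libraries.

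Neither Ptf1a nor Aplp1 followed the pair from library to library. Kirrel2 stood at 112, 133 and 54.7% of its Sd/Sd mean in replicates 1, 2 and 3, and Nphs1 at 112, 133 and 54.7%. Ptf1a stood at 114, 76.8 and 109% of its own Sd/Sd mean, lowest in the library where Kirrel2 was highest. Aplp1 stood at 90.1, 105 and 105%, level in the 2 libraries that were highest and lowest in Kirrel2. As shares of counts, Kirrel2 took 42.8% (40.2 to 45.3%), 57.0% (54.8 to 59.2%) and 27.7% (25.3 to 30.2%) of the Kirrel2 and Ptf1a counts in replicates 1, 2 and 3 (95% exact binomial intervals). The 3 intervals do not overlap, unlike those of Nphs1 within the pair. All of them cover counting error only, not the variation between libraries. The order of the libraries, replicate 2 highest and 3 lowest, was not particular to the pair. Lrfn3 (20.8, 23.0 and 14.3 CPM in replicates 1, 2 and 3) and Arhgap33 (23.6, 30.7 and 22.6) had it too. Nfkbid (1.55, 1.68 and 1.94) did not. Outside the locus, Cpa1 (4.71, 7.79 and 1.26) and Sox9 (14.0, 26.5 and 5.47) had it. Gad1 (15.2, 5.92 and 20.3) and T (143, 77.1 and 203) ran in the reverse order. On the leading principal component, Sd/Sd replicates 1, 2 and 3 stood at -6.55, -32.7 and 47.9, with replicates 2 and 3 at the ends. A difference across the whole library was not tested. With 3 mutant libraries no correlation is given.

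**Figure D2:**
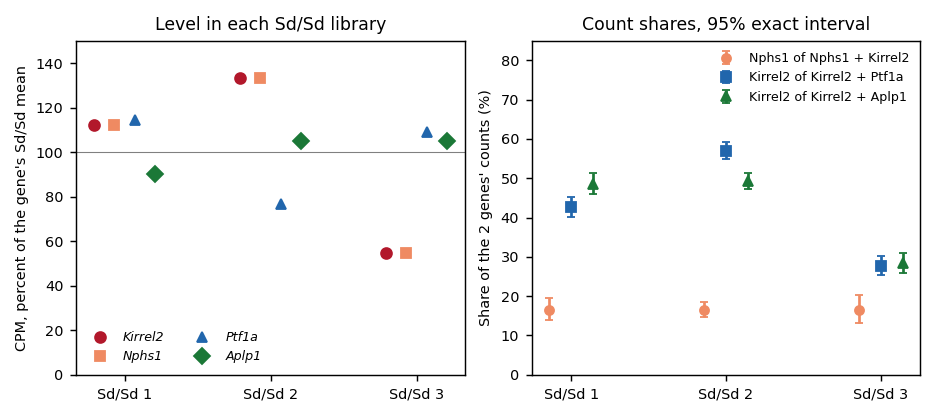
Left, the level of Kirrel2, Nphs1, Ptf1a and Aplp1 in each Sd/Sd library as a percent of the gene's own mean over the 3 Sd/Sd libraries. Right, the share of counts of Nphs1 within Nphs1 plus Kirrel2, of Kirrel2 within Kirrel2 plus Ptf1a, and of Kirrel2 within Kirrel2 plus Aplp1, with 95% exact binomial intervals for counting error. The Nphs1 share stays at 16.5 to 16.6%, while the Kirrel2 share against Ptf1a ranges from 27.7 to 57.0%.

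Aplp1 (ENSMUSG00000006651.6), the gene beside Kirrel2, was the 1 neighbour with higher values in every Sd/Sd library among those tested, and it did not pass the threshold. It had 669, 1183 and 928 counts in Sd/Sd replicates 1, 2 and 3, against 550, 627 and 372 counts in WT replicates 1, 2 and 3. In CPM these were 16.2, 18.9 and 18.9 in Sd/Sd, a mean of 18.0 ± 1.55, against 10.4, 11.9 and 8.81 in WT, a mean of 10.4 ± 1.53 (SD, n = 3 each). All 3 Sd/Sd values lay above all 3 WT values. The fitted log2 fold change of Aplp1 was 0.80 (SE 0.14), a 1.74-fold difference with a 95% interval of 1.39 to 2.17, and edgeR gave a Benjamini-Hochberg adjusted p of 0.287. Aplp1 ranked 16 by p among the 15471 genes. Its values were known when the genes and the question were chosen. The rank, interval and p-values of Aplp1 carry that choice and are given as a description. Without Sd/Sd replicate 3 its log2 fold change was 0.76 (edgeR adjusted p = 0.341), and without Sd/Sd replicate 1 it was 0.87 (edgeR adjusted p = 0.536). DESeq2 called Aplp1 at an adjusted p of 1.38e-04. Over all alternatives the adjusted p of Aplp1 ran from 1.38e-04 to 1.00, and DESeq2 was the 1 fit that called it.

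Aplp1 differed from the pair in that WT tailbuds made it too. Its Sd/Sd excess over the WT mean was 5.86, 8.52 and 8.56 CPM in replicates 1, 2 and 3, whereas Kirrel2 stood at 15.4, 18.3 and 7.51 CPM. The Aplp1 excess was alike in replicates 2 and 3, where Kirrel2 was at its highest and its lowest. The WT values behind that mean had an SD of 1.53 CPM (n = 3). Any link between the transcription of Kirrel2 and of Aplp1 was not tested. Aplp1 has 3.02 kb of exon and overlaps no annotated gene.

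Beyond Aplp1 on the same side, the tested neighbours Nfkbid and Lrfn3 were not called by edgeR. Nfkbid (ENSMUSG00000036931.8) had 64, 105 and 95 counts in Sd/Sd replicates 1 to 3, against 109, 110 and 86 counts in WT replicates 1 to 3. Scaled for depth, Nfkbid averaged 1.72 ± 0.197 CPM in Sd/Sd and 2.06 ± 0.0226 CPM in WT (SD, n = 3 each), and every Sd/Sd library lay below every WT library. The Nfkbid difference was a log2 fold change of -0.26 (SE 0.23), with an interval of 0.585 to 1.19 for the fold and an edgeR Benjamini-Hochberg adjusted p of 1.00. Lrfn3 (ENSMUSG00000036957.7) had 856, 1440 and 701 counts in Sd/Sd against 1016, 918 and 694 counts in WT, or 19.4 ± 4.52 CPM against 17.7 ± 1.44 CPM (SD, n = 3 each). The Lrfn3 groups overlapped, with Sd/Sd replicate 3 below all WT libraries and replicates 1 and 2 above them, and the log2 fold change was 0.13 (SE 0.17, fold interval 0.836 to 1.43, edgeR adjusted p = 1.00), which turned to -0.014 without Sd/Sd replicate 2.

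Hcst and Tyrobp, the adaptors of natural killer and myeloid cell receptors, were close to absent in both genotypes and were not tested. Hcst (ENSMUSG00000064109.6) had 0, 5 and 8 counts in Sd/Sd, against 2, 4 and 5 counts in WT, with a ratio of the summed, depth-scaled counts of 1.14 (95% exact counting interval 0.472 to 2.82). Tyrobp (ENSMUSG00000030579.9) had 5, 9 and 4 counts in Sd/Sd, against 2, 4 and 1 counts in WT, a ratio of 2.49 (0.991 to 7.04). In CPM the Tyrobp values were 0.121, 0.144 and 0.0816 in Sd/Sd and 0.0379, 0.0757 and 0.0237 in WT, which do not overlap but rest on single-digit counts. With no filter on low counts, edgeR gave Tyrobp an adjusted p of 1.00. Of 15 genes for receptors and kinases that work with these adaptors, 7 were tested and 0 were called by edgeR, DESeq2 or limma-voom (0 at an unadjusted p under 0.05), and Trem3, Klrk1, Cd300c and Clec5a had no count in any library. The smallest p in that list were those of the signalling genes Plcg2 (12.2 ± 0.795 CPM in Sd/Sd and 13.3 ± 2.01 CPM in WT) and Lyn (9.14 ± 1.48 and 9.97 ± 1.93 CPM). By edgeR, 0.0582% of all tested genes were called, so 0 of these 7 is near that share. The pan-leukocyte marker Ptprc had 5 counts in Sd/Sd and 6 in WT.

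On the Nphs1 side, neither Prodh2 nor Arhgap33 was higher in Sd/Sd beyond the spread of the libraries. Prodh2 (ENSMUSG00000036892.6), which breaks down hydroxyproline in liver and kidney, had 0, 0 and 0 counts in Sd/Sd, against 5, 0 and 1 counts in WT. It fell under the filter, and with no filter edgeR gave an adjusted p of 1.00. Arhgap33 (ENSMUSG00000036882.5) had 973, 1923 and 1108 counts in Sd/Sd, against 1519, 1233 and 868 counts in WT. That was 25.6 ± 4.42 CPM in Sd/Sd and 24.2 ± 4.20 CPM in WT (SD, n = 3 each), with overlapping groups, a log2 fold change of 0.08 (SE 0.16), a fold interval of 0.825 to 1.36 and an edgeR adjusted p of 1.00. The sign turned without Sd/Sd replicate 2 (-0.069) or WT replicate 3 (-0.023).

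Counted together, 6 of the 9 genes had enough counts for the test, and Hcst, Tyrobp and Prodh2 did not. Of the 6, the pair that set the choice was called higher in Sd/Sd, where 0.0388% of all 15471 genes were called higher and 0.0582% in either direction. The count was 1 without Sd/Sd replicate 1 or WT replicate 1 and 0 without WT replicate 2 or WT replicate 3. All Sd/Sd libraries lay above all WT libraries in 3 of the 6 (Kirrel2, Nphs1 and Aplp1), against 3.26% of all tested genes. They lay below in 1 of the 6 (Nfkbid), against 4.42% of all tested genes. Kirrel2 and Nphs1 passed the filter through their Sd/Sd values, and these counts use the contrast that chose them, so nothing is read from them. The 4 tested neighbours had a median log2 fold change of 0.11, with 3 positive and 1 negative, beside a median of -0.000337 over all tested genes.

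Per kilobase of exon, Kirrel2 was in the upper part of the 9 genes in Sd/Sd and near 0 in WT. Among the 18 tested genes within 12 places of the pair, 13 had a higher level per kb than Kirrel2 in Sd/Sd and 5 a lower one. In Sd/Sd the levels in CPM per kb were 6.71 ± 1.57 for Lrfn3, 5.97 ± 0.513 for Aplp1, 4.80 ± 0.828 for Arhgap33 and 3.49 ± 1.42 for Kirrel2 (SD, n = 3). Each of these differed from the next by less than their summed SDs. Lower down came Nfkbid at 0.734 ± 0.0838, Nphs1 at 0.411 ± 0.167, Tyrobp at 0.173 ± 0.0472, Hcst at 0.112 ± 0.113 and Prodh2 at 0, of which Tyrobp and Hcst differed by less than their spread. In WT, Lrfn3 stood at 6.13 ± 0.499, Arhgap33 at 4.54 ± 0.786 and Aplp1 at 3.44 ± 0.506 CPM per kb, then Nfkbid at 0.879 ± 0.00962, Hcst at 0.107 ± 0.0558, Tyrobp at 0.0686 ± 0.0403, Prodh2 at 0.0161 ± 0.0201, Kirrel2 at 0.00200 ± 0.00347 and Nphs1 at 0. In that order, Arhgap33 and Aplp1 differed by less than their summed SDs, and so did each neighbouring pair from Hcst to Kirrel2. At its Sd/Sd level Kirrel2 did not differ from Arhgap33 beyond their spread, and Nphs1 stayed below Nfkbid.

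The search was then widened to 12 protein-coding genes on each side of the pair. Of 24 such genes, 23 are in the files and 18 were tested, and 0 were called by edgeR, where 0.0582% of all genes were. At an unadjusted p under 0.05 there was 1, Aplp1, where 2.90% of all tested genes were. DESeq2 called 1, again Aplp1, where it called 0.230% of all genes to which it gave an adjusted p, and limma-voom called 0, where it called 0.0194% of all tested genes. The 18 log2 fold changes split into 9 positive and 9 negative with a median of 0.01, from -0.59 (SE 0.53) for E130208F15Rik to 0.80 for Aplp1. Leaving Aplp1 aside, the highest of the other 17 was 0.13, for Lrfn3. Beyond Lrfn3 came Sdhaf1 (0.02), a succinate dehydrogenase assembly factor, Syne4 (-0.17), Alkbh6 (0.05), Clip3 (0.05) and Wdr62 (0.11), a centrosomal protein of dividing neural progenitors. Beyond Arhgap33 came Proser3 (-0.00), the small heat shock protein gene Hspb6 (-0.14), Lin37 (-0.08), Psenen (-0.01), a subunit of gamma-secretase, U2af1l4 (0.01), the histone methyltransferase gene Kmt2b (0.03), Zbtb32 (-0.13) and Upk1a (-0.16). Thap8, with 0 counts in Sd/Sd and 1 in WT, and Igflr1, with 0 in both, could not be tested, like Tyrobp, Hcst and Prodh2.

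Over 24 genes on each side, 34 were tested and 0 were called by edgeR, with 1 at an unadjusted p under 0.05 (Aplp1). The next called gene on the Nphs1 side was Fxyd1, a small membrane protein that regulates the sodium-potassium pump, at place 37 from the pair. Fxyd1 had 135, 243 and 125 counts in Sd/Sd, against 39, 31 and 25 counts in WT, or 3.24 ± 0.666 CPM against 0.639 ± 0.0868 CPM (SD, n = 3 each), with no overlap and a log2 fold change of 2.33 (SE 0.27, edgeR Benjamini-Hochberg adjusted p = 0.0330). Fxyd1 was not called with limma-voom, with no robust option or when any library other than Sd/Sd replicate 3 was left out. Its neighbours Fxyd3, with 3.63 ± 0.950 CPM in Sd/Sd and 1.36 ± 0.139 CPM in WT, and Lgi4, with 3.36 ± 0.469 CPM and 2.07 ± 0.212 CPM, had log2 fold changes of 1.42 and 0.70 without being called (edgeR adjusted p = 0.333 and 1.00). Fxyd3 and Lgi4 overlap on opposite strands. The 3 called genes on chromosome 7, among 1200 tested there, were Kirrel2, Nphs1 and Fxyd1. The 40-gene reach was chosen after the place of Fxyd1 was seen.

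**Figure D3:**
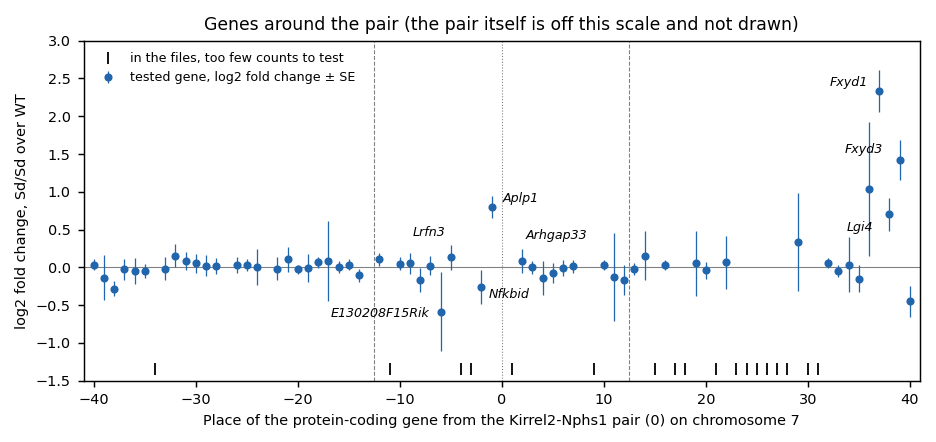
Fitted log2 fold change of Sd/Sd over WT, with its SE, for tested protein-coding genes up to 40 places from the Kirrel2 and Nphs1 pair, drawn by place and not by distance. Negative places lie on the Aplp1 side, dashed lines bound the 12 genes on each side, and ticks at the bottom are genes in the files with too few counts. Aplp1 at 0.80 stands above the other genes between the dashed lines, and Fxyd1 at 2.33 is the highest point.

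Genes that work with Kirrel2 and Nphs1 in the podocyte were not called with them, where few genes of any kind were called. Of the genes each tool gave an adjusted p, edgeR called 0.0582%, DESeq2 0.230% and limma-voom 0.0194%. An unadjusted edgeR p under 0.05 was found for 2.90%. Beside these shares, 0 called in a list of this size is near the background, here and in the lists below. The slit diaphragm and podocyte list had 24 of 25 genes tested, with 0 called by edgeR, DESeq2 or limma-voom, 1 at an unadjusted p under 0.05 (Tcf21), 8 positive and 16 negative log2 fold changes and a median of -0.04. Kirrel, a relative of Kirrel2 that also lies in the slit diaphragm, averaged 154 CPM in Sd/Sd and 157 CPM in WT, and Kirrel3 averaged 0.830 and 1.32 CPM (log2 fold changes -0.03 and -0.68, edgeR adjusted p = 1.00 for both). The members with the smallest p were Tcf21, a podocyte and mesenchyme transcription factor, with 9.91 ± 1.40 CPM in Sd/Sd and 7.46 ± 0.741 CPM in WT, and the channel gene Trpc6, with 1.65 ± 0.147 and 2.44 ± 0.804 CPM (SD, n = 3 each). Summed over the list, the level was 2335 to 2457 CPM in Sd/Sd and 2345 to 2559 CPM in WT. Over all 18 relatives of the 9 genes elsewhere in the genome, 0 were called by any of the 3 tools (0 at an unadjusted p under 0.05) and the median log2 fold change was -0.03. The smallest p among them were those of Lrfn4, a relative of Lrfn3, with 104 ± 5.03 CPM in Sd/Sd and 111 ± 3.59 CPM in WT, and Nfkbie, a relative of Nfkbid, with 5.33 ± 0.685 and 6.38 ± 0.619 CPM.

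Of 5 tested genes of the PTF1 complex, 1 was called, Ptf1a itself, where edgeR called 0.0582% of all tested genes. Ptf1a averaged 18.0 ± 3.65 CPM in Sd/Sd and 0.0521 ± 0.0377 CPM in WT (SD, n = 3 each, edgeR adjusted p = 3.17e-05), a result that belongs to the same contrast as the choice of the pair. Rbpj averaged 77.2 CPM in Sd/Sd and 71.4 CPM in WT, and the E proteins Tcf3, Tcf4 and Tcf12 had log2 fold changes of 0.06, 0.05 and 0.15, none called. Rbpjl, the RBPJ form of the adult exocrine pancreas, had 8 counts in Sd/Sd and 12 in WT. Among 12 tested genes of the neural program under Ptf1a, 0 were called by the 3 tools, 1 had an unadjusted p under 0.05 (Pax2), and the median was -0.05. Pax2 averaged 7.82 ± 0.855 CPM in Sd/Sd and 11.4 ± 0.276 CPM in WT, and the GABA enzyme gene Gad1 13.8 ± 7.29 and 22.4 ± 0.734 CPM (SD, n = 3 each). Among 13 tested pancreatic genes, 0 were called by the 3 tools, 2 had an unadjusted p under 0.05 (Pdx1 and Cpa1), and the median was -0.15. Pdx1 averaged 0.483 ± 0.0473 CPM in Sd/Sd and 0.0600 ± 0.0304 CPM in WT (edgeR adjusted p = 0.316), and Cpa1 averaged 4.59 ± 3.27 and 0.786 ± 0.477 CPM (adjusted p = 1.00). Beside the neural and pancreatic counts, 2.90% of all tested genes had an unadjusted edgeR p under 0.05. Skor2, Gsx2, Ctrb1 and Amy2a5 had no count in any library.

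Genes tied to Aplp1 by function or cell type were not called either, near the 0.0582% of all tested genes that edgeR called. Of 17 tested genes that process or bind proteins of the amyloid precursor family, 0 were called by the 3 tools (0 at an unadjusted p under 0.05), 7 were positive and 10 negative, and the median was -0.01. App averaged 173 CPM in Sd/Sd and 180 CPM in WT, and Aplp2 303 and 311 CPM, with log2 fold changes of -0.06 and -0.04. The smallest p were those of the adaptor gene Apba1 (1.99 ± 0.613 CPM in Sd/Sd and 1.58 ± 0.0734 CPM in WT) and the protease gene Bace2 (1.29 ± 0.152 and 1.58 ± 0.163 CPM). Markers of postmitotic neurons, where Aplp1 is mostly made, numbered 9 tested with 0 called by the 3 tools (0 at an unadjusted p under 0.05) and a median of -0.11, and the whole list summed to 68.4 to 80.9 CPM in Sd/Sd and 78.5 to 80.6 CPM in WT. Snap25 averaged 0.751 ± 0.125 CPM in Sd/Sd and 0.515 ± 0.102 CPM in WT, and Map2 8.59 ± 1.17 and 10.0 ± 1.88 CPM. Dcx, at 0 in every library, lies on chromosome X. The part of neurons in the Aplp1 values was not tested.

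Blood and macrophage markers, set beside Hcst and Tyrobp, numbered 8 tested, with 0 called by the 3 tools (0 at an unadjusted p under 0.05) and all 8 negative, and a median of -0.16. The list of 17 summed to 1266 to 6499 CPM in Sd/Sd and 2536 to 5721 CPM in WT. Most of each sum came from the globin genes Hbb-bh1 and Hba-x, so it says little of macrophages. Hbb-bh1 ran from 481 to 2699 CPM in Sd/Sd and from 1046 to 2545 CPM in WT. Hba-x ran from 643 to 3666 CPM in Sd/Sd and from 1324 to 3016 CPM in WT. Gata1, on chromosome X, was at 0. Spi1, the macrophage transcription factor, had 0.163 ± 0.0798 CPM in Sd/Sd and 0.346 ± 0.0948 CPM in WT. Cd68 had 3.97 ± 0.571 and 4.64 ± 0.190 CPM (SD, n = 3 each). The untested members had few counts and went both ways. Summed counts in Sd/Sd and WT were 8 and 1 for Adgre1, 11 and 4 for C1qb and 6 and 3 for C1qa. They were 17 and 32 for Cx3cr1, 6 and 12 for Itgam, 23 and 27 for Aif1, 5 and 6 for Ptprc and 14 and 14 for Lyz2. As for the other lists, 0 called is near the 0.0582% of all tested genes that edgeR called. All lists were chosen with earlier results of these libraries known.

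**Figure D4:**
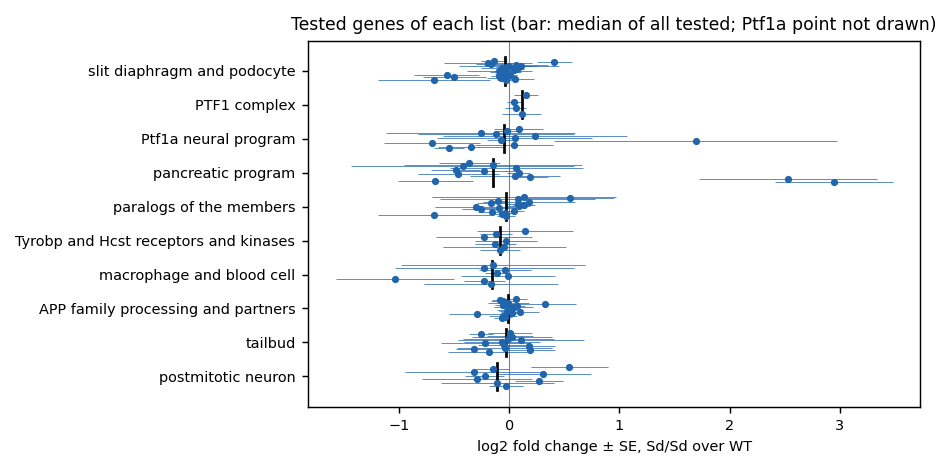
Fitted log2 fold change of Sd/Sd over WT, with its SE, for each tested gene of the 10 lists, 1 row per list. The black bar is the median of all tested genes of the list, and the point of Ptf1a is left off because it exceeds the scale. The medians lie between -0.16 and 0.11, and no point drawn was called.

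Across the 6 libraries, the gene most like Kirrel2 was Nphs1, with a Pearson r of 0.999 on log2(CPM + 0.1). Next came Leo1 (0.994), Arhgef40 (0.994), Fxyd1 (0.993) and Zfp868 (0.993), and Ptf1a stood at place 7 with 0.986. After Kirrel2, the genes most like Nphs1 were Zfp868 (0.997), Fxyd1 (0.996), Arhgef40 (0.994) and Leo1 (0.989). Leo1 and Arhgef40 differed between genotypes by log2 fold changes of 0.17 each, so r carries nothing of the size of a change. For Aplp1 the nearest were Fam72a (0.991), Pex19 (0.986), Mgst1 (0.982), Cr1l (0.978) and Gm7367 (0.976), with Ptf1a at 0.938 and Kirrel2 at 0.921. All points share genotype, so for Kirrel2 and Nphs1, whose WT values are at or near 0, r follows the split into 2 groups and is a description with no p.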

How the data were processed

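Polyadenylated RNA of 3 Sd/Sd and 3 WT tailbud libraries was used as whole-number counts per gene, 1 file per library, as deposited by the authors. The submitters' processing notes name CASAVA, bcl2fastq 2.17.1.14, STAR 2.5.2b, SAMtools and DESeq2, with build mm9. How reads were assigned to genes, by which release and strand, is not stated in the sources used here. Overlapping genes may therefore share or lose reads. Names, gene order, overlaps and exon lengths came from GENCODE M21, which named 32620 of 37310 identifiers.

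Genes kept by filterByExpr (minimum count 10, minimum total 15; 99.967% of counts) were tested with edgeR 4.0.16 in R 4.3.3 (TMM, robust quasi-likelihood, 2-sided, Benjamini-Hochberg, threshold 0.05). The common coefficient of biological variation was 18.6%. CPM uses TMM-scaled library sizes. Counting intervals are exact 95% intervals, and floors are 3 counts over a group; both cover counting error only. The fit was tested on simulated counts. An exact permutation test of 3 against 3 cannot go below 0.1.

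The 9 genes, the lists, the motifs and the alternatives were chosen with earlier results of these data known. Named are the 9 genes, the 12 protein-coding genes on each side and Ptf1a. Named too are the called genes or else the 2 smallest p of each list, and the 5 genes most like Kirrel2, Nphs1 and Aplp1. Relatives, partners, Fxyd neighbours, Sox9 and T beyond that were named after their values were seen. The values of 1 listed gene are not reported here. Deviations from the group means correlated at 0.194, 0.144 and 0.275 between same-numbered Sd/Sd and WT libraries, over the 0.1 taken as pairing, though Sd/Sd 2 and WT 1 reached 0.182. The labels do not say what the numbers mark. No 2 libraries of a group agreed within sampling noise. Alternatives were DESeq2 1.42.0, its size factors, limma-voom 3.58.1, no filter, a minimum count of 30, no robust option, the replicate block, each library left out, and windows of 6, 24 and 40 genes.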

Additional observations from a re-analysis of the deposited data

How the results depend on the processing

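The number of genes called was 9 in the edgeR fit as reported, 40 with DESeq2, 3 with limma-voom, 14 with no filter, 3 with no robust option, 12 with the replicate block and 2 to 6 when 1 library was left out. Of the 9 genes followed, those called higher numbered 2 as reported, 3 with DESeq2 (Aplp1 added), 1 with limma-voom (Kirrel2 lost), 1 with no robust option (Nphs1 lost) and 0 to 2 when 1 library was left out. Nphs1 was not among them without Sd/Sd replicate 1 or any 1 WT library, nor Kirrel2 without WT replicate 2 or WT replicate 3. Kirrel2 and Nphs1 were chosen on this contrast, so these counts describe the fits and say nothing of how stable their difference is. The fits without a library hold fewer samples, and the cause of the lost calls was otherwise not tested. The replicate block changed no call among the 9 genes (adjusted p of Aplp1 0.116). Within 12 genes on each side, 0 were called as reported, 1 with DESeq2 (Aplp1) and 0 under every other fit; the added 40-gene window held 1, Fxyd1, and DESeq2 also called Fxyd3 (adjusted p = 0.00104). The log2 fold change of Aplp1 stayed between 0.69 and 0.91 when 1 library was left out. Arhgap33 turned negative without Sd/Sd replicate 2 (-0.069) or WT replicate 3 (-0.023) and reached 0.23 without WT replicate 1, and Lrfn3 ran from -0.014 without Sd/Sd replicate 2 to 0.31 without Sd/Sd replicate 3. At 0 to 9 counts per library, small differences of Hcst, Tyrobp and Prodh2 were not detectable, and the counting intervals of the ratio reached 2.82 for Hcst and 7.04 for Tyrobp.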
